A study of Mus musculus with 6 samples.

Results

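The genes described here are 32 genes that are known to respond to low oxygen and act outside glycolysis. They were taken from a list of mouse symbols, with no threshold on their values but with earlier results of these data known, and matched through the GENCODE annotation to 32 of the 55450 gene rows of the count table, 1 row each. Cells sense oxygen through prolyl hydroxylases (the Egln enzymes), which mark hypoxia-inducible factor (HIF) alpha subunits for degradation while oxygen is present. When oxygen falls, the stabilised subunits pair with Arnt and bind the hypoxia response element, a short sequence with the core ACGTG or GCGTG, near their target genes. Besides glycolysis, HIF targets modify collagen, remove mitochondria, store glycogen, demethylate histones and restrain growth, and in endothelium the HIF pathway is also known for its part in vessel growth.

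RNA-seq of polyadenylated RNA was run on CD31-positive cells enriched with magnetic beads from mouse brains, on a mixed FVB/N and C57BL/6 background. The age label reads P7 (postnatal day 7) for all samples, while a separate time label reads P0, and day 7 is taken here as the age. Both groups had the transgene Cdh5(PAC)-CreERT2, in which an endothelial cadherin promoter drives a Cre that tamoxifen activates, and tamoxifen (100 µg) was given to both on postnatal days 1 and 2. The 3 control libraries came from Rbpjflox/WT mice, so that 1 Rbpj allele was floxed in the controls too, and the 3 mutant libraries from Rbpjflox/flox mice. Rbpj is the DNA-binding protein of Notch signalling. RNA was pooled from many animals of both sexes, and nothing in the labels says that each library had its own pool. The p-values therefore reflect library-to-library spread, part or all of which may be technical.

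Rbpj, the targeted gene, had 54.3, 54.3 and 53.8 CPM (counts scaled to library size) in the controls and 47.9, 46.8 and 45.2 CPM in the mutants, a log2 fold change of -0.21 ± 0.042 (SE, adjusted p = 0.0129). A count over all exons of a gene may include exons outside the floxed part, so this is a weak check of the labels. Totals ran from 75744913 to 82092461 counts per library. On the second principal component, mutant library 3 lay apart at -55.6, against 26.2 to 31.2 for the other mutant libraries. All 9 endothelial markers were detected, with a summed 10700 to 11000 CPM in the controls and 11000 to 11900 CPM in the mutants. Single markers did move, by the test described below. Emcn (log2 fold change 0.47), Pecam1 (0.41) and Tie1 (0.21) were called higher, and Tek (-0.62) and Cdh5 (-0.15) lower. Markers of mural cells, fibroblasts, microglia, erythroid cells, astrocytes, neurons and oligodendrocytes were detected as well.

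Of the 32 members, all of which passed the filter on low counts, 12 rose and 2 fell in the mutant, and 18 were not called. A gene is called higher or lower where its adjusted p was under 0.05 by the edgeR quasi-likelihood test over all 19549 genes tested. Higher members were thus 37.5% of the list, where 7.56% of all genes tested were called higher, and lower members were 6.25%, where 6.83% of all genes were called lower. The median log2 fold change of the members was 0.10, against -0.01 over all genes tested, and was 0.18 without mutant library 2, 0.19 without mutant library 3 and 0.16 over the 30 members that passed a stricter filter. The 2 members that rose more than 2-fold were Stc2 and Ankrd37, and the other 10 that rose changed by 1.14-fold to 1.70-fold. Over all 19549 genes tested, 253 were called higher with a rise of at least 2-fold. In bulk libraries of enriched cells, fewer cells of a type and less RNA per cell cannot be told apart.

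**Figure D1:**
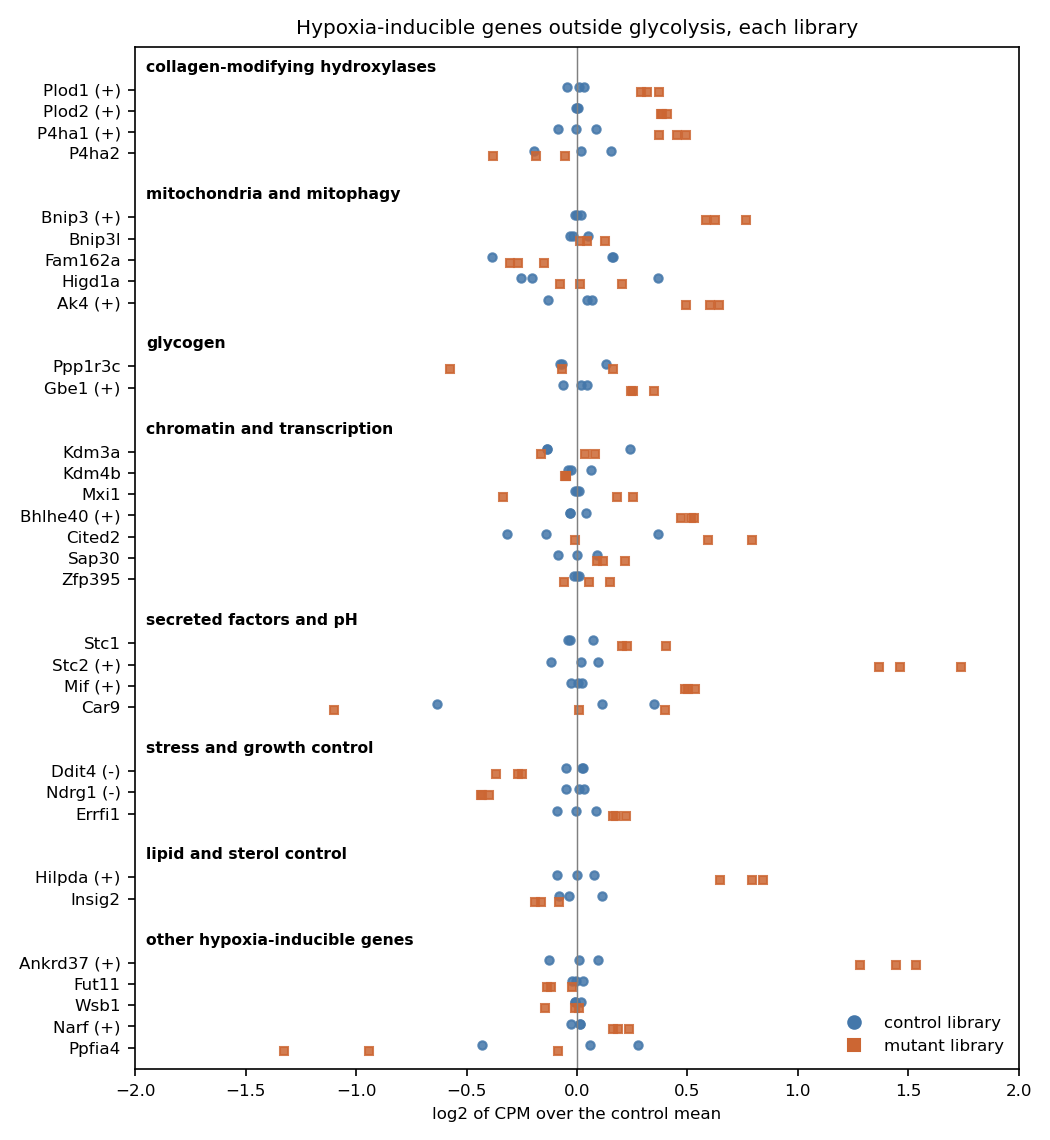
Each point is 1 library, placed at the log2 of its CPM over the mean CPM of the 3 control libraries, for the 32 members grouped by role (circles: control, squares: mutant; + higher and - lower by adjusted p). The mutant libraries of Stc2 and Ankrd37 stand farthest to the right, and those of Ddit4 and Ndrg1 lie left of every control library.

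The groups did not overlap for 15 members with the mutant libraries above and for 4 with the mutant libraries below. Over all genes tested, mutant libraries lay above in 16.8% and below in 17.3%. All 14 called members were among these 19. The other 5 had separate groups but missed the threshold: Sap30, Stc1 and Errfi1 with the mutant libraries above, and Kdm4b and Fut11 with them below. For Sap30 the gap was minimal, as its highest control and lowest mutant library both round to 14.9 CPM. The summed level of the 32 members was 1720 to 1790 CPM in the controls and 2000 to 2060 CPM in the mutants, of which Plod1 alone gave 24.2% to 24.6% and 26.2% to 27% respectively.

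**Figure D2:**
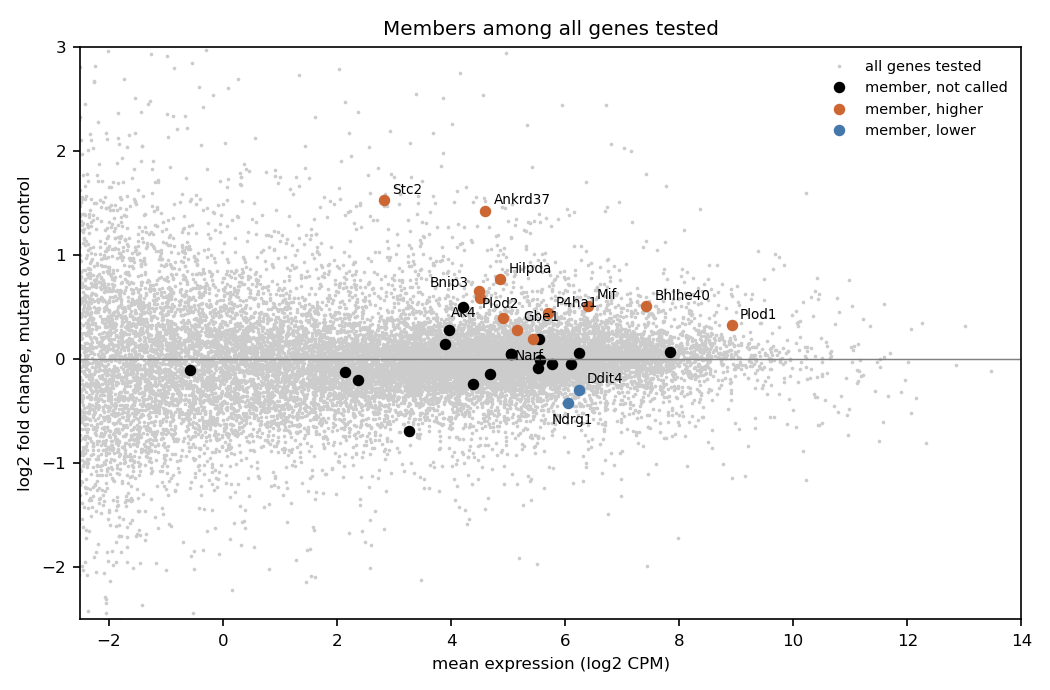
Log2 fold change (mutant over control) against mean expression (log2 CPM) for all genes tested in grey and the 32 members in colour, with the called members named; genes outside the plotted ranges are not shown. Plod1 is the member with the highest count level, and Stc2 and Ankrd37 lie highest among the members.

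Promoter sequence was found for 25 of the 32 members in RefSeq windows of 300 bases (GRCm38.p6), which run from upstream of a gene's start to just past it. The core of the hypoxia response element, ACGTG or GCGTG on either strand, stood in 30 of the members' 38 windows (78.9%) and in 14380 of all 32851 windows (43.8%). The ACGTG form alone stood in 50% of the members' windows and in 19.6% of all windows. It overlaps the E-box CACGTG, which 15.8% of the members' windows and 7.15% of all windows held. The members' windows were also richer in G and C, with a median of 64.3% against 52.7%, and the part of base composition in these shares was not tested. Counted by gene, the core was present in 9 of 10 higher members with a window and in all 14 members not called that had one. It was also present in Ddit4, the lower member with one, and in 12628 of 27025 genes with a window. A gene can have several windows. Counted by window, it stood in 13 of 14 (92.9%) for higher members and in 16 of 23 (69.6%) for members not called. This difference was not tested.

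These promoters are shown because their genes behaved differently: those of Ankrd37, Bnip3 and P4ha1, which rose, of P4ha2, the paralogue of P4ha1 that was not called, and of Ddit4, which fell. The stretches lie at chr8:45999868-46000100 (minus strand) for Ankrd37, chr7:138909520-138909756 (minus) for Bnip3, chr10:59323046-59323295 (plus) for P4ha1, chr11:54100674-54100923 (plus) for P4ha2 and chr10:59951835-59952020 (minus) for Ddit4, all in GRCm38. Each is read 5′ to 3′ along the gene, upstream of the RefSeq start and without annotated exon bases. The stretches of Ankrd37 and P4ha2 lie inside the GENCODE genes, whose 5′ ends are farther upstream at 46005707 and 54100095. The others lie directly before the GENCODE gene. Capitals mark the core on either strand.
Ankrd37: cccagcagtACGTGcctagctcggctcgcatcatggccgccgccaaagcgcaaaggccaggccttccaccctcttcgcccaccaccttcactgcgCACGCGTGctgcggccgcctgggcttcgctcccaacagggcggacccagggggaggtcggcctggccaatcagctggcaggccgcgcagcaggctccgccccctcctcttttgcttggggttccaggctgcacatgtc
Bnip3: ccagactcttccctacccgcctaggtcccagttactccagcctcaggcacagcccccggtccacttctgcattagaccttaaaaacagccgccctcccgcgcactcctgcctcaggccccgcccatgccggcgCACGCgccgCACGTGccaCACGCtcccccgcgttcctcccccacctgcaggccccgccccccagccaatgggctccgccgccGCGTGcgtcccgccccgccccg
P4ha1: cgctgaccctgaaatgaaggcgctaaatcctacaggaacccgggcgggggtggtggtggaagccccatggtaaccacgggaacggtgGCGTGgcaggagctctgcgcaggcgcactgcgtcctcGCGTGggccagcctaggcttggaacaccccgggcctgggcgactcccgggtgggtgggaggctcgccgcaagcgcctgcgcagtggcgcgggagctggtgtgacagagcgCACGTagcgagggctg
P4ha2: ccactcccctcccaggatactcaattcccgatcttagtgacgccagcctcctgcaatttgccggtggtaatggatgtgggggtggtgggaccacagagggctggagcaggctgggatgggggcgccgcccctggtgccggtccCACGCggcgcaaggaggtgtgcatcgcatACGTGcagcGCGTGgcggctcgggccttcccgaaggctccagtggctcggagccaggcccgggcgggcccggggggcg
Ddit4: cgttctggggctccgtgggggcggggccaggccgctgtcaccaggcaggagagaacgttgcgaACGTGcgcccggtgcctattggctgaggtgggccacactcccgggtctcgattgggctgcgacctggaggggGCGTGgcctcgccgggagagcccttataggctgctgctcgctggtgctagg
The printed stretch of Bnip3 held 5 matches on both strands together, those of Ankrd37, P4ha1 and P4ha2 held 3 each and that of Ddit4 held 2. In Bnip3 a pair of the matches is the palindrome CACGTG, which reads as the core on either strand. The 2 prolyl 4-hydroxylase genes thus carried the same number of matches, though only P4ha1 was called. A match describes these letters and not a bound site.

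Enzymes that hydroxylate collagen rose in 3 of 4 cases, where 7.56% of all genes tested were called higher. This and the following groups were sorted by role and hold few genes, so their counts describe only the genes named. Plod1 and Plod2 are lysyl hydroxylases, whose product anchors collagen cross-links. Plod1 had 417, 433 and 439 CPM in the controls and 536, 525 and 557 CPM in the mutants, a rise of 0.33 ± 0.036 on the log2 scale (SE, adjusted p = 0.000947). Plod2 had 25.9, 26 and 25.8 CPM in the controls and 33.8, 33.7 and 34.4 CPM in the mutants, a rise of 0.39 ± 0.047 (adjusted p = 0.00143). All mutant libraries lay above all control libraries for both genes, and the libraries of a group differed by at most 1.06-fold. P4ha1, a catalytic subunit of prolyl 4-hydroxylase, which stabilises the collagen triple helix, had 41.4, 43.7 and 46.6 CPM in the controls and 60.1, 56.8 and 61.9 CPM in the mutants. It rose by 0.44 ± 0.058 (adjusted p = 0.00225). The alternative catalytic subunit P4ha2 had 4.81, 6.13 and 5.58 CPM in the controls and 5.31, 4.84 and 4.23 CPM in the mutants, so its groups overlapped (log2 fold change -0.20 ± 0.14, adjusted p = 0.429). Fibroblasts also make collagen-modifying enzymes, and of 6 fibroblast markers 2 were lower and none higher in the mutant, with a summed level of 801 to 908 CPM in the controls and 530 to 702 CPM in the mutants and no marker at 0. Mural cells also make collagen, and of 9 pericyte and smooth muscle markers 3 were higher and 4 lower, none at 0. The smooth muscle markers Acta2 (-1.32), Tagln (-1.17) and Myh11 (-1.02) were lower by more than 2-fold. The other markers were mixed: Kcnj8 (0.49), Abcc9 (0.52) and Cspg4 (0.19) were higher and Vtn (-0.18) was lower. Pdgfrb (-0.05) and Rgs5 (0.09) were not called. The sum of the 9, 3930 to 4030 CPM in the controls and 4020 to 4110 CPM in the mutants, was mostly Rgs5, with a mean of 2040 and 2170 CPM. The part of those cells in the change was not tested.

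Per kilobase of exon, Plod1 was the most abundant of these 4 enzymes, with 63.5 ± 1.73 CPM per kb in control and 79.7 ± 2.39 in mutant libraries (SD, n = 3). P4ha1 followed with 10.7 ± 0.63 and 14.5 ± 0.624 CPM per kb, then Plod2 with 4.81 and 6.31, then P4ha2 with 0.883 ± 0.106 and 0.768 ± 0.0875. The ratio of P4ha1 to P4ha2 per kb was 13, 10.8 and 12.7 in control and 17.2, 17.8 and 22.2 in mutant libraries, so that every mutant library had a larger excess of P4ha1. The ratio of Plod2 to Plod1 stayed between 0.0737 and 0.0806 in all libraries, with overlap between the groups.

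**Figure D3:**
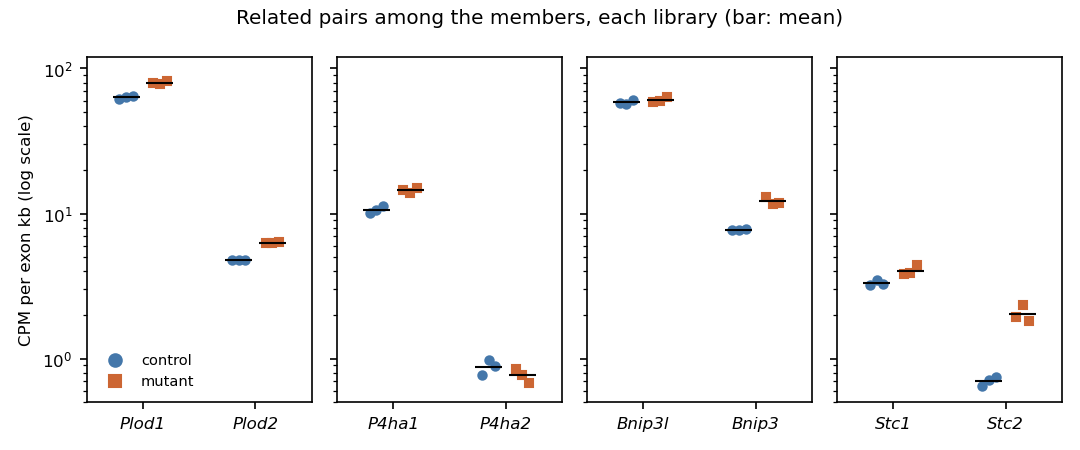
Level per kilobase of exon (CPM per kb, log scale) in each library for 4 related pairs among the members (circles: control, squares: mutant, bars: group means). P4ha1, Bnip3 and Stc2 show the larger shift within their pairs, while Plod1 and Plod2 shift alike, with ratios of 0.0737 to 0.0806 in all libraries.

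Among the members that act at mitochondria, 2 of 5 rose. Bnip3, a mitophagy receptor of the outer mitochondrial membrane, had 17.4, 17.5 and 17.7 CPM in the controls and 29.7, 26.2 and 27 CPM in the mutants. It rose 1.58-fold (log2 fold change 0.66 ± 0.067 SE, adjusted p = 0.000625), with all mutant libraries clear of the controls. Its relative Bnip3l (Nix), best known for clearing mitochondria from maturing red cells, had 222, 220 and 233 CPM in the controls and 227, 232 and 246 CPM in the mutants, which overlap (0.06 ± 0.042, adjusted p = 0.399). Of 7 erythroid markers, 5 were lower and none higher, with a summed 6970 to 7180 CPM in the controls and 4670 to 4960 CPM in the mutants, and the part of red cell precursors in the level of Bnip3l was not tested. Bnip3l also has a pseudogene, Bnip3l-ps, at 15.2 CPM in the controls and 16.4 CPM in the mutants on average, and the authors' counting could split reads between the copies. Per kb, Bnip3 stood at 0.13 to 0.136 of the level of Bnip3l in control and at 0.187 to 0.223 in mutant libraries.

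Ak4, a mitochondrial matrix adenylate kinase, had 18.9, 19.2 and 16.7 CPM in the controls and 28.6, 27.8 and 25.8 CPM in the mutants and rose by 0.59 ± 0.077 (adjusted p = 0.00226). Fam162a, which encodes a mitochondrial protein linked to hypoxic cell death, had 25.2, 25.3 and 17.3 CPM in the controls and 18.3, 18.8 and 20.4 CPM in the mutants. Control library 3 was the low one, and without it Fam162a was called lower, at -0.40 (adjusted p = 0.0211), against -0.24 ± 0.15 (adjusted p = 0.381) with all libraries. Higd1a, a small inner-membrane protein that supports respiratory complexes, varied from 27.2 to 41.8 CPM in the controls and from 30.7 to 37.3 CPM in the mutants and was not called (0.05 ± 0.19, adjusted p = 0.902). Its highest value was in control library 3 as well.

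The 2 glycogen genes differed. Gbe1, the glycogen branching enzyme, had 32.6, 30.8 and 33.2 CPM in the controls and 38.4, 38.1 and 41 CPM in the mutants, a rise of 0.28 ± 0.056 (adjusted p = 0.0141), which missed the threshold without control library 2 (adjusted p = 0.0512). Ppp1r3c, which brings protein phosphatase 1 to glycogen, had 4.32, 4.34 and 4.98 CPM in the controls and 5.1, 4.34 and 3.05 CPM in the mutants (-0.13 ± 0.19, adjusted p = 0.749). Its mutant libraries lay on both sides of the controls.

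Of the 7 chromatin and transcription members, 1 rose. Bhlhe40 (Dec1), a repressor of the basic helix-loop-helix family, had 139, 146 and 139 CPM in the controls and 205, 197 and 203 CPM in the mutants. It rose 1.42-fold (0.51 ± 0.037, adjusted p = 0.000119). Microglia can express Bhlhe40 too, and of 8 microglia markers 6 were lower and none higher, with a summed 1410 to 1440 CPM in the controls and 1110 to 1150 CPM in the mutants; the part of these cells was not tested. The histone demethylases that HIF induces did not pass the test. Kdm3a, which acts on histone H3 lysine 9, had 43.2, 43.1 and 55.9 CPM in the controls and 50.1, 48.6 and 42.4 CPM in the mutants (-0.01 ± 0.12, adjusted p = 0.971). Kdm4b had 57.9, 54.4 and 53.9 CPM in the controls and 53.5, 53.6 and 53.4 CPM in the mutants, where the mutant values lay just below all controls (-0.05 ± 0.043, adjusted p = 0.528).

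Cited2, which competes with HIF for the coactivators CBP and p300, had the largest change among the members with a positive fold change that were not called, 0.50 ± 0.27 (adjusted p = 0.331). Its control libraries held 13.9, 12.3 and 19.7 CPM and its mutant libraries 26.5, 23.1 and 15.2 CPM. Library 3 of each group lay on the side of the other group. Mxi1, an antagonist of Myc, had 74, 73.6 and 74.5 CPM in the controls and 88.1, 58.6 and 84 CPM in the mutants. Mutant library 2 lay below the controls and the other two above, and without it Mxi1 was called higher (0.22, adjusted p = 0.024), against 0.05 ± 0.16 (adjusted p = 0.881) with all libraries. Sap30, a subunit of the Sin3 corepressor complex, ranged from 13.2 to 14.9 CPM in the controls and from 14.9 to 16.3 CPM in the mutants (0.14 ± 0.079, adjusted p = 0.312). Zfp395, a zinc finger protein, ranged from 32.3 to 32.8 CPM and from 31.3 to 36.2 CPM (0.05 ± 0.063, adjusted p = 0.686).

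Secreted members included the largest rise of all. Stc2 (ENSMUSG00000020303, chromosome 11 from 31357307 to 31370074 on the minus strand, GRCm38) encodes stanniocalcin 2, a secreted glycoprotein that inhibits the protease Pappa. It had 3.35, 3.67 and 3.88 CPM in the controls and 10, 12.1 and 9.37 CPM in the mutants. Every mutant library lay above every control, and the rise was 2.89-fold (1.53 ± 0.13, adjusted p = 0.000263). Its paralogue Stc1 had 13.6, 14.7 and 13.7 CPM in the controls and 16.1, 16.4 and 18.5 CPM in the mutants, also without overlap, and missed the threshold (0.28 ± 0.081, adjusted p = 0.0624). Per kb, Stc2 stood at 0.2 to 0.23 of the level of Stc1 in control and at 0.411 to 0.598 in mutant libraries. Stc1 passed the threshold with DESeq2 (adjusted p = 0.0261), with the stricter filter (0.0442) and with counts divided by 4 (0.0496).

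Mif, a cytokine also made by many resting cells, had the highest level of the members per length, 93.5 ± 1.72 CPM per kb in control and 133 ± 2.5 in mutant libraries (SD, n = 3). Its values were 70.8, 68.3 and 70 CPM in the controls and 98.9, 101 and 97.9 CPM in the mutants, a rise of 0.51 ± 0.036 (adjusted p = 0.000109). The libraries of each group lay within 1.04-fold of each other. The pseudogenes named after Mif in the count table, Mif-ps3 and Mif-ps7, could share its reads but held little. Mif-ps3 had 0.0166 and 0.0262 CPM in the controls and mutants, and Mif-ps7 had 0. Copies under other names were not looked for. Car9, a cell-surface carbonic anhydrase used widely as a marker of hypoxic tumour cells, was at the low end, with 0.847, 0.428 and 0.72 CPM in the controls and 0.876, 0.669 and 0.31 CPM in the mutants. It was the only member under 1 CPM on average. Its deposited counts were 67, 35 and 59 in control and 72, 52 and 23 in mutant libraries, and about 4 counts stand for 1 read pair. Its groups overlapped, and its fold change had the largest SE of the members (-0.10 ± 0.45, adjusted p = 0.922). Car9 shares 214 exon bases with Gm12454 on the other strand. Gm12454 had 8, 0 and 0 counts in control and 28, 32 and 15 in mutant libraries and was not called (adjusted p = 0.127). The part of its reads in the counts of Car9 was not tested.

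The 2 members that fell were a share of the list (6.25%) near that of all genes tested (6.83%). Both had been placed in the stress and growth group, which holds 3 genes. Ndrg1 (ENSMUSG00000005125, chromosome 15 from 66929318 to 66969640 on the minus strand), a gene induced by hypoxia and differentiation, had 73.5, 76.5 and 77.8 CPM in the controls and 56.4, 56.2 and 57.6 CPM in the mutants. It fell by 0.42 on the log2 scale (SE 0.039, adjusted p = 0.000399). Ddit4 (REDD1; ENSMUSG00000020108, chromosome 10 from 59949669 to 59951834 on the minus strand), an inhibitor of mTORC1 that glucocorticoids, ATF4 and p53 also induce, had 80.2, 84.5 and 84.6 CPM in the controls and 69, 70 and 64.4 CPM in the mutants. It fell by 0.29 (SE 0.047, adjusted p = 0.00528). For both genes every mutant library lay below every control library. Errfi1 (Mig6), a feedback inhibitor of the EGF receptor, went the other way, with 46, 43.3 and 40.8 CPM in the controls and 50.6, 49 and 48.6 CPM in the mutants. It had no overlap but missed the threshold (0.19 ± 0.055, adjusted p = 0.0622), which it passed with DESeq2 (adjusted p = 0.0371), with counts divided by 4 (0.0452) and without control library 1 (0.0468).

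Because Ddit4 answers to more than HIF, lists of glucocorticoid-responsive genes and of ATF4 targets were described beside it, but none of p53 targets. Of 10 glucocorticoid-responsive genes, 2 were called higher and 3 lower, and the median was -0.21. Pdk4 (-0.64) and Cdkn1c (-0.50) were lower and Fkbp5 (0.45) higher. Of 12 ATF4 targets, 3 were called higher and 2 lower, and the median was -0.07; Trib3 (1.42) and Chac1 (0.93) were higher and the serine synthesis gene Phgdh (-0.29) lower. Both lists held called genes in each direction. Their part in the values of Ddit4 was not tested.

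The 2 members that control lipids and sterols differed. Hilpda, which coats lipid droplets and inhibits the lipase Pnpla2, had 20.2, 22.7 and 21.5 CPM in the controls and 38.6, 37.2 and 33.7 CPM in the mutants. It rose 1.70-fold, with all mutant libraries above the controls (0.77 ± 0.074, adjusted p = 0.00046). Insig2, which retains the sterol sensor Scap in the endoplasmic reticulum, ranged from 25.4 to 29.1 CPM in the controls and from 23.6 to 25.4 CPM in the mutants (-0.14 ± 0.071, adjusted p = 0.249).

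Of the remaining 5 members, 2 rose. Ankrd37 (ENSMUSG00000050914, chromosome 8 from 45996902 to 46005707 on the minus strand), a small ankyrin-repeat protein, had 12.1, 14.1 and 13.3 CPM in the controls and 32.1, 35.9 and 38.2 CPM in the mutants. It rose 2.69-fold (1.43 ± 0.089, adjusted p = 6.6e-05), the smallest adjusted p of the members. Its exons overlap those of Lrp2bp by 349 bases and those of Ufsp2 by 57 bases on the other strand, and whether the counting used strand is not given. Lrp2bp had 0.717 and 1.23 CPM on average in control and mutant libraries and Ufsp2 21.8 and 26.4 CPM, and neither was called (adjusted p = 0.292 and 0.113). In all, 10 members share exon bases with a gene on the other strand, among them the higher members Plod2, Bnip3, Bhlhe40 and Ankrd37. The partner of Plod2, Gm38391, had 1.38 and 0.916 CPM, and those of Bnip3 (Gm45507) and Bhlhe40 (0610040F04Rik) had 0 and at most 0.0172 CPM on average. Narf, a gene of the iron-only hydrogenase-like family that binds prelamin A, had 39.7, 40.8 and 40.8 CPM in the controls and 47.6, 45.3 and 46 CPM in the mutants. Its rise of 0.20 ± 0.044 (adjusted p = 0.0244) was lost without any of control libraries 1, 2 and 3 and mutant libraries 1 and 3 (adjusted p = 0.0844, 0.0631, 0.0601, 0.0893 and 0.0511) and with the replicate block (0.0874), at a log2 fold change of 0.17 to 0.22 over all alternatives.

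Fut11, a fucosyltransferase, had 47, 46.5 and 48.1 CPM in the controls and 43.5, 43 and 46.4 CPM in the mutants, slightly lower without overlap (-0.09 ± 0.048, adjusted p = 0.285). Wsb1, a substrate adaptor of an E3 ubiquitin ligase, had 69, 69 and 70.2 CPM and 69.9, 68.9 and 62.8 CPM (-0.05 ± 0.049, adjusted p = 0.617). Ppfia4, a liprin of the presynaptic scaffold family, had 8.82, 14.4 and 12.4 CPM in the controls and 6.19, 11.2 and 4.74 CPM in the mutants. It had the most negative fold change of the members, and its groups overlapped (-0.69 ± 0.37, adjusted p = 0.325). Of 7 neuron markers 1 was lower and none higher, with a summed 201 to 211 CPM in the controls and 215 to 258 CPM in the mutants, and the part of neurons was not tested. Without mutant library 2 it was called lower (-1.11, adjusted p = 0.0432).

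The libraries of a group differed widely for a few members. Among the 30 members with a mean of at least 5 CPM, 4 had libraries of 1 group that differed 1.5-fold or more (Higd1a, Mxi1, Cited2 and Ppfia4). This share was close to that of all 11738 genes at that level, of which 11.3% did, so such spread was not particular to the members. None of these 4 was called, and a wide spread itself makes a call less likely.

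Levels per length spread over the list by more than 2 orders of magnitude. In control libraries Mif was followed by Plod1 at 63.5, Bnip3l at 58.3 ± 1.73, Ddit4 at 47.3 ± 1.44 and Bhlhe40 at 30.1 ± 0.886 CPM per kb (SD, n = 3), with gaps between these 5 larger than their SDs. Bhlhe40 did not stand apart from the next member, Fam162a at 26.6 ± 5.41. Errfi1, Sap30, Ndrg1, Kdm4b and Fut11 followed each other from 12.1 down to 11.1, with each step between successive members smaller than the larger of their SDs. Mxi1 at 10.9 ± 0.065 lay below Fut11 at 11.1 ± 0.192 by more than either SD, and P4ha1 and Higd1a, at 10.7 ± 0.63 and 10.6 ± 2.68, were not apart from Mxi1. In mutant libraries Bhlhe40, at 42.8 ± 0.921 CPM per kb, stood above Ddit4, at 38.6 ± 1.72. Ankrd37 moved from 8.55 ± 0.64 to 23 ± 2.02 CPM per kb, from below to above Wsb1, at 17.4 and 16.8.

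The HIF subunits themselves moved in opposite directions. Hif1a had 171, 176 and 169 CPM in the controls and 229, 234 and 249 CPM in the mutants and rose by 0.46 ± 0.042 (adjusted p = 0.000347). Epas1, the HIF-2 alpha subunit prominent in endothelium, had 1900, 1980 and 1910 CPM in the controls and 1370, 1370 and 1510 CPM in the mutants and fell by 0.45 (SE 0.046, adjusted p = 0.000623). Per kb, Epas1 was the more abundant of the pair in both groups, at 346 and 253 CPM per kb, against 29.2 and 40.2 for Hif1a. The oxygen sensor and HIF target Egln3 rose from 4.4, 3.91 and 5.46 CPM in control to 31.3, 32 and 29.3 CPM in the mutants (2.75 ± 0.13, adjusted p = 2e-05). In all, 3 of 10 HIF subunits and oxygen-sensing genes were called higher and 2 lower, and the median was 0.01.

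Other HIF target lists had larger medians than the 32 members. Of 22 genes of glycolysis and glucose entry, 13 were called higher and 1 lower, and the median was 0.51. The largest changes among those called were in the lactate transporter Slc16a3 (2.26), the phosphofructokinase Pfkp (0.79) and the pyruvate kinase Pkm (0.78). The 1 called lower was the glucose transporter Slc2a1 (-0.48), with a mean of 2340 CPM in the controls and 1680 CPM in the mutants. The glucose transporter Slc2a3 (0.74) was called higher, at 6.56 and 10.9 CPM. Of 15 angiogenic and matrix targets, 8 were called higher and 2 lower, and the median was 0.35, led by Adm (2.44), Pgf (1.86) and Angpt2 (1.67). Of 9 Notch targets and pathway genes, 4 were called higher and 3 lower, and the median was -0.06; Hey1 (-0.52) and Hes1 (-0.33) were lower and Nrarp (0.37) higher. The difference between these lists and the members was not tested.

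**Figure D4:**
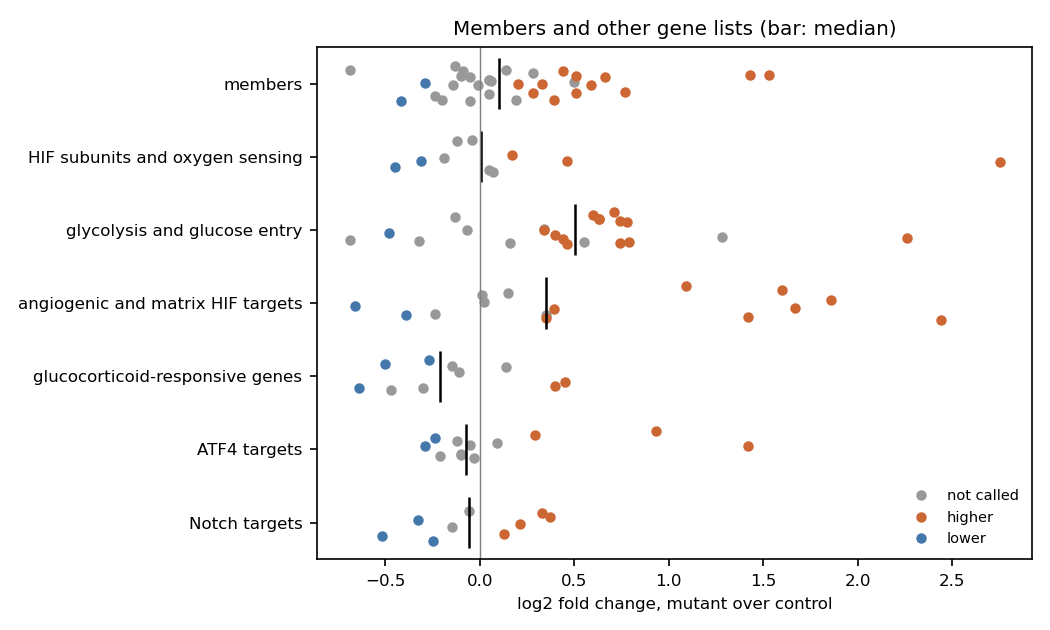
Log2 fold change (mutant over control) of each gene in the members and in 6 other lists, coloured by call, with a bar at each list's median; vertical scatter within a row has no meaning. The medians run from -0.21 for glucocorticoid-responsive genes to 0.51 for glycolysis, with the members at 0.10.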

How the data were processed

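The labels describe poly(A) RNA-seq of CD31-enriched brain cells, with a stranded kit. The authors deposited estimated counts per gene, which are whole and carry no normalization. Tools named in the submitters' processing notes are edgeR, HISAT2, StringTie 1.3.4, cutadapt 1.10 and FastQC 0.10.1, with GRCm39 as the build. What each tool did, the annotation and whether strand was used are not given in the sources used here. Each of the 55450 gene identifiers matches GENCODE M21 (GRCm38), which supplied symbols, exon lengths and coordinates. Low counts pile up at 4 (1118 to 1190 genes per library, against 316 to 365 at 3), so about 4 counts stand for 1 read pair. Valid read counts in the deposited quality table, per the file headers, were 50226902 to 53986268 per library. Taken over all valid reads, the totals came to 3.02 to 3.05 counts per read pair. That is below 4, and the difference was not examined.

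Counts were already whole, so rounding changed nothing. Genes were filtered with filterByExpr, scaled by TMM and tested genome-wide with the edgeR 4.0.16 quasi-likelihood F test (robust, R 4.3.3), group as the only term, all 6 libraries, with Benjamini-Hochberg adjustment over 19549 genes. The SE is the fold change over the square root of F. Other settings tried were RLE factors, library size only, no filter, a filter at 5 CPM in 3 libraries, DESeq2 1.42.0, limma-voom (limma 3.58.1), counts divided by 4, each library left out, and a replicate block. Aldoa and Ddit3 have 2 gene identifiers each, and the one with more counts was used.

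The members and all gene lists were chosen with earlier results of these data known. All 32 members are named, and from each other list the called genes with the 3 largest changes, apart from Slc2a1, Slc2a3, overlap partners, pseudogenes and marker sums.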

Additional observations from a re-analysis of the deposited data

How the results depend on the processing

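Over the 14 alternatives, 10 of the 12 higher members (all but Gbe1 and Narf) and both lower members kept their call, 13 of the 18 other members were called under none, and no called direction reversed. The other 5 (Errfi1, Fam162a, Mxi1, Ppfia4 and Stc1) passed the threshold under at least 1 alternative. With 1 library left out, 10 to 13 members were higher and 2 or 3 lower, and over all genes 1100 to 1270 were higher and 807 to 1125 lower. Lower calls over all genes dropped most, from 1335, when control library 1 (807), control library 2 (861) or mutant library 2 (865) was left out. The members' median was 0.10 to 0.19 with 1 library left out, 0.18 without mutant library 2 and 0.19 without mutant library 3, and 0.16 with the stricter filter, which left 30 members. Same-numbered libraries did not deviate together (correlations of -0.02, 0.01 and 0.02), so the numbers were not taken to pair the libraries; with the replicate block 11 members were higher and 2 lower, and over all genes 1106 and 953. Car9, the lowest member, rests on 23 to 72 counts per library, and what this depth could detect was not tested.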
